A study of Mus musculus with 12 samples.

Results

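The genes described here encode the 5 NF-kB subunits (NFKB1, NFKB2, RELA, RELB and REL) and 5 IkB proteins (NFKBIA, NFKBIB, NFKBIE, NFKBIZ and BCL3). They were chosen by symbol, and all 10 were found among the 23636 gene symbols of the table. The levels come from RNA sequencing of CT26, a mouse colon carcinoma cell line, after recombinant CX3CL1 (fractalkine, the chemokine ligand of the receptor CX3CR1), IFN-γ or both. There were 4 groups of 3 biological replicates: No treatment, CX3CL1 at 2 µg/ml, IFN-γ at 100 ng/ml, and CX3CL1+IFN-γ at those doses, with the doses and the 8 hours of treatment as the paper's methods and a figure legend give them. All 12 libraries are the same cell line. The labels name no agent besides CX3CL1 and IFN-γ, but the paper's text also mentions TNF-α, a strong activator of NF-kB, beside IFN-γ in describing this treatment. Whether the libraries labelled IFN-γ and CX3CL1+IFN-γ also received TNF-α could not be settled, and every value of these groups below is to be read with that limit. Values are TPM, a level per transcript length scaled to the same total in each library, and levels of different genes can be set side by side.

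NF-kB is a family of dimeric transcription factors that is held in the cytoplasm of resting cells by IkB proteins. Inflammatory signals activate the IKK kinases, IkB is phosphorylated and degraded, and the freed dimers enter the nucleus and bind kB sites. Several genes of the family, NFKBIA best known among them, are themselves transcribed in response to NF-kB, while NFKBIZ and BCL3 encode atypical IkB proteins that act in the nucleus on promoters of inflammatory genes. GAS elements are promoter sequences of genes that respond to IFN-γ.

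Promoter sequence was read from RefSeq (build GRCm38.p6, the assembly that mm10 names) for the 250 bases before each annotated start. The reason was that kB sites lie in promoters of NF-kB target genes. Entries were found for 7 of the 10 genes, with 9 windows in all, and NFKB1, RELB and NFKBIZ had none. The 10-base NF-kB consensus, searched on both strands, was found in 6 of the 9 windows, belonging to NFKB2, NFKBIA, NFKBIE and REL, against 7.28% of all 32536 distinct windows of this length. By gene this was 4 of 7, since NFKB2 has several windows, some of which overlap each other. The GAS element TTCNNNGAA, also searched on both strands, was found in 1 window, that of NFKB2, against 7.04% of all windows. The windows of RELA, NFKBIB and BCL3 held neither. The whole windows of NFKBIA (chr12:55492648-55492897, minus strand) and NFKBIE (chr17:45555450-45555699, plus strand), 2 inhibitor genes with high folds in every treated group, are printed 5′ to 3′ and end at the base before the start, with the consensus match in capitals. No annotated gene overlaps either window.
NFKBIA: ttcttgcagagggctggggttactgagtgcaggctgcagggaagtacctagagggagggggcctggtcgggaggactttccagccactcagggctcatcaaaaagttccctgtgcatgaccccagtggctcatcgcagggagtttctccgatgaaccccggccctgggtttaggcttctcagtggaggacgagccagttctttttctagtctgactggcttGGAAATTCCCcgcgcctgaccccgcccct
NFKBIE: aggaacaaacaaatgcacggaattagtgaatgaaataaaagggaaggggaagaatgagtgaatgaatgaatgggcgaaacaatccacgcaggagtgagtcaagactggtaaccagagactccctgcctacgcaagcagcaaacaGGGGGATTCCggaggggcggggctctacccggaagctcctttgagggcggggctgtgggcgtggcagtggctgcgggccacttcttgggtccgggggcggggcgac

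The match begins 29 bases before the start in NFKBIA and 106 bases before it in NFKBIE. For REL, the stretch chr11:23771039-23771073 (minus strand) holds a pair of overlapping matches, in capitals.
REL: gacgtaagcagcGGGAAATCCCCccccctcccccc
NFKB2 had matches before each of its 3 annotated starts, among them GGGAATTCCC beginning 39 bases before the start at position 46304737 of chromosome 19, and GGGACTTTCC beginning 225 bases before the start at position 46305930. Both lie in exons of other annotated NFKB2 transcripts. A match is a run of letters and was not tested as a binding site. No link between the matches and the changes in level was tested.

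Each library held between 10613 and 10824 symbols at or above 1 TPM, and the replicates of a group correlated at 0.9941 to 0.9983 on log2(TPM + 1). The depth of the libraries is unknown from TPM, so the spread between replicates was the measure of precision. Of 8 colon epithelial markers, 6 were below 1 TPM in all libraries and EPCAM was at 0, while KRT18 (18.4 to 53.6 TPM) and KRT20 (6.44 to 16.8 TPM) were present. Their summed level ran from 51.2 to 64.7 TPM without treatment, 33.5 to 44.4 with CX3CL1, 35.7 to 41.8 with IFN-γ and 24.9 to 33.1 with both. Of 8 leukocyte markers, 6 were below 1 TPM in all libraries and CD3E was at 0; CD68 made up most of a summed level of 8.99 to 17.6, 8.28 to 22.0, 9.57 to 20.3 and 10.2 to 27.5 TPM in the same order. The part of the cell make-up in the results was not tested. CX3CR1 itself was listed between 0 and 0.154 TPM. This is RNA, whereas the paper reports high CX3CR1 protein on CT26 cells by flow cytometry. The paper also reports that a CX3CR1 antibody reduced responses of these cells to CX3CL1. IRF1, a response gene of IFN-γ, was 19.6 TPM without treatment and 107 TPM with IFN-γ. In such bulk RNA, fewer cells that express a gene and less RNA per cell cannot be told apart.

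Differences were tested with limma on log2(TPM + 1) over the 11878 genes whose TPM averaged 0.2 or more, with adjusted p-values (Benjamini-Hochberg over all these genes) and a threshold of 0.05. All 10 NF-kB and IkB genes passed the filter. After CX3CL1, 7 of the 10 were higher and 0 lower, where 1.78% of all genes tested were called higher and 0.168% lower. These were NFKB1, NFKB2, RELB, NFKBIA, NFKBIE, NFKBIZ and BCL3. With the replicate number as a block NFKBIB passed as well (adjusted p = 0.0405), and the calls over all genes rose too, by the counts given at the end. The fold changes of all 10 genes were positive, with a median log2 fold change of 1.21 against -0.02 over all genes tested. The 3 CX3CL1 libraries lay above the 3 untreated libraries for 8 of the 10, which was so for 5.5% of all genes.

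After IFN-γ, RELB, NFKBIA, NFKBIE and BCL3 were higher, 4 of the 10, and 0 were lower, where 5.91% of all genes were called higher and 1.94% lower. Again all 10 fold changes were positive, with a median of 0.72 against 0.03 over all genes, and for 9 of the 10 the groups did not overlap, against 20.6% of all genes on the higher side. NFKB2 (adjusted p = 0.0459), NFKBIB (adjusted p = 0.0101) and NFKBIZ (adjusted p = 0.0131) also passed with the replicate number as a block. The shares above belong to the fit without a block. With the block the calls over all genes rose as well, by the counts given at the end. The comparisons of CX3CL1 and of IFN-γ with no treatment share the untreated libraries.

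When CX3CL1 was added to IFN-γ, NFKB1 and NFKBIZ were higher than with IFN-γ alone, 2 of the 10, where 0.345% of all genes were called higher and 0.0168% lower. The median over the 10 was 0.29 against -0.00 over all genes, and 9 of 10 fold changes were positive. The groups did not overlap for 4 of the 10, all higher (NFKB1, REL, NFKBIZ and BCL3), against 8.54% of all genes. The replicate block added BCL3, with an adjusted p of 0.0065. When IFN-γ was added to CX3CL1, BCL3 was the 1 gene of the 10 that was higher than with CX3CL1 alone, where 3.76% of all genes were called higher and 0.935% lower, and it was also the 1 of the 10 whose groups did not overlap, against 14% of all genes. The median over the 10 was 0.19 against 0.04 over all genes in that comparison. An exact permutation test of 3 libraries against 3 cannot go below p = 0.1, and the calls therefore depend on limma's pooling of the spread between genes.

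**Figure D1:**
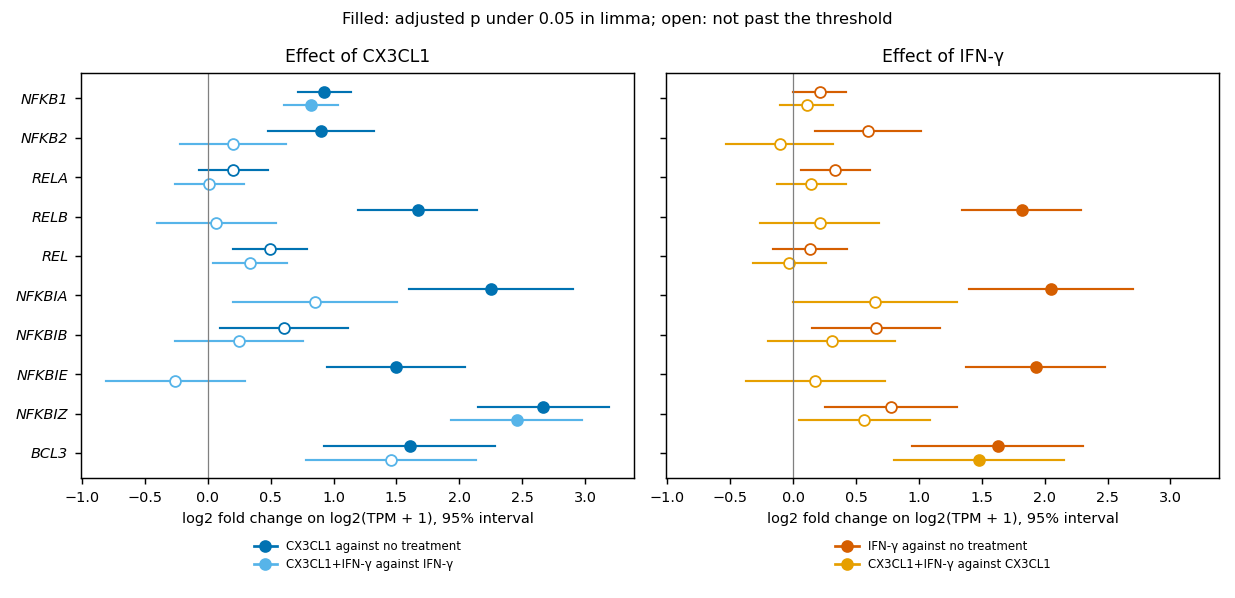
Log2 fold change of each gene on the log2(TPM + 1) scale (x axis) with its 95% interval, for CX3CL1 with and without IFN-γ (left) and for IFN-γ with and without CX3CL1 (right); filled points passed an adjusted p of 0.05. NFKBIZ and NFKB1 stand right of 0 in both CX3CL1 comparisons, while RELB and NFKBIE stand near 0 when CX3CL1 was added to IFN-γ.

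Among the subunits, NFKB1 and NFKB2 were the most abundant. NFKB1 (chromosome 3, 135584655 to 135691547, minus strand) encodes the precursor of a DNA-binding subunit without a transactivation domain. Its level was 73.7, 77.5 and 65.6 TPM in the untreated libraries, 155, 128 and 133 with CX3CL1, 83.1, 84.6 and 83.2 with IFN-γ, and 145, 142 and 159 with both. The 6 libraries that received CX3CL1 lay above the 6 that did not, whether or not IFN-γ was present. The means were 72.3 ± 6.10 (SD, n = 3), 138 ± 14.4, 83.6 ± 0.866 and 149 ± 9.35 TPM, so that the folds over no treatment were 1.91, 1.16 and 2.06. NFKB1 rose with CX3CL1 by 0.93 on the log2 scale (standard error 0.10, adjusted p = 2.5e-04) and by 0.82 when CX3CL1 was added to IFN-γ (standard error 0.10, adjusted p = 0.0015). The change with IFN-γ alone was 0.21 (adjusted p = 0.227).

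NFKB2 (chromosome 19, 46304320 to 46312385, plus strand) encodes the precursor that is processed in the non-canonical pathway. Its TPM were 121, 136 and 112 without treatment, 290.0, 167 and 252 with CX3CL1, 165, 169 and 230.0 with IFN-γ, and 237, 178 and 231 with both. The 3 treated groups overlapped each other and lay above the untreated libraries, with folds of 1.92, 1.53 and 1.75. NFKB2 was higher after CX3CL1 by 0.90 on the log2 scale (standard error 0.20, adjusted p = 0.031), and the change after IFN-γ was 0.59 (standard error 0.20, adjusted p = 0.089, or 0.0459 with the replicate block). The CX3CL1 call of NFKB2 did not hold without the filter on low TPM (adjusted p = 0.0963) or in 5 of the 6 fits that left out a library (adjusted p of 0.0908, 0.0680 and 0.167 without untreated replicate 1, 2 and 3, and of 0.137 and 0.135 without CX3CL1 replicate 1 and 3). NFKB2 overlaps an antisense RNA gene and the gene PSD at its ends, and the strand setting of the authors' counting is not given in the sources used here.

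RELA (chromosome 19, 5637483 to 5648130, plus strand) encodes the transactivating subunit of the classical dimer. Its level moved least of the subunits between no treatment and CX3CL1: 54.5, 60.5 and 56.5 TPM without treatment, 74.3, 58.5 and 65.9 with CX3CL1, 74.0, 68.2 and 74.9 with IFN-γ, and 89.4, 66.7 and 64.9 with both. The CX3CL1 libraries overlapped the untreated ones, whereas the IFN-γ libraries lay above them. The log2 fold change was 0.20 after CX3CL1 (95% interval -0.07 to 0.48, adjusted p = 0.903) and 0.33 after IFN-γ (0.06 to 0.61, adjusted p = 0.140). RELA did not pass the threshold in any of the 5 comparisons, and only the fit of the untreated and IFN-γ libraries alone gave a call (adjusted p = 0.0337).

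RELB (chromosome 7, 19606217 to 19629438, minus strand) encodes the subunit that pairs with the processed product of NFKB2. It was at 11.9, 13.8 and 10.3 TPM without treatment, 52.2, 29.5 and 41.5 with CX3CL1, 39.8, 37.9 and 57.9 with IFN-γ, and 54.5, 36.9 and 50.1 with both. Every treated library lay at more than 2 times the highest untreated library, and the 3 treated groups overlapped. Mean levels were 12 ± 1.78 (SD, n = 3), 41.1 ± 11.3, 45.2 ± 11.1 and 47.2 ± 9.17 TPM. RELB rose 3.43-fold with CX3CL1 (1.67 on the log2 scale, standard error 0.22, adjusted p = 0.0011) and 3.78-fold with IFN-γ (1.82, standard error 0.22, adjusted p = 1.4e-04). Adding CX3CL1 to IFN-γ gave a log2 fold change of 0.07 (95% interval -0.41 to 0.54, adjusted p = 0.990).

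REL (chromosome 11, 23736847 to 23770970, minus strand), which encodes the subunit best known from lymphocytes, was the least abundant of the subunits in each group. Its TPM were 7.73, 5.46 and 6.11 without treatment, 9.35, 10.7 and 8.26 with CX3CL1, 7.24, 6.30 and 7.76 with IFN-γ, and 9.75, 9.11 and 8.73 with both. The libraries with CX3CL1 were above those without it in each pair of groups, with no overlap. The log2 fold changes were 0.50 for CX3CL1 (standard error 0.14, adjusted p = 0.113) and 0.33 when CX3CL1 was added to IFN-γ (standard error 0.14, adjusted p = 0.975). With median-ratio scaling the first passed (adjusted p = 0.0371), as it did without untreated replicate 1 (adjusted p = 0.0368).

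**Figure D2:**
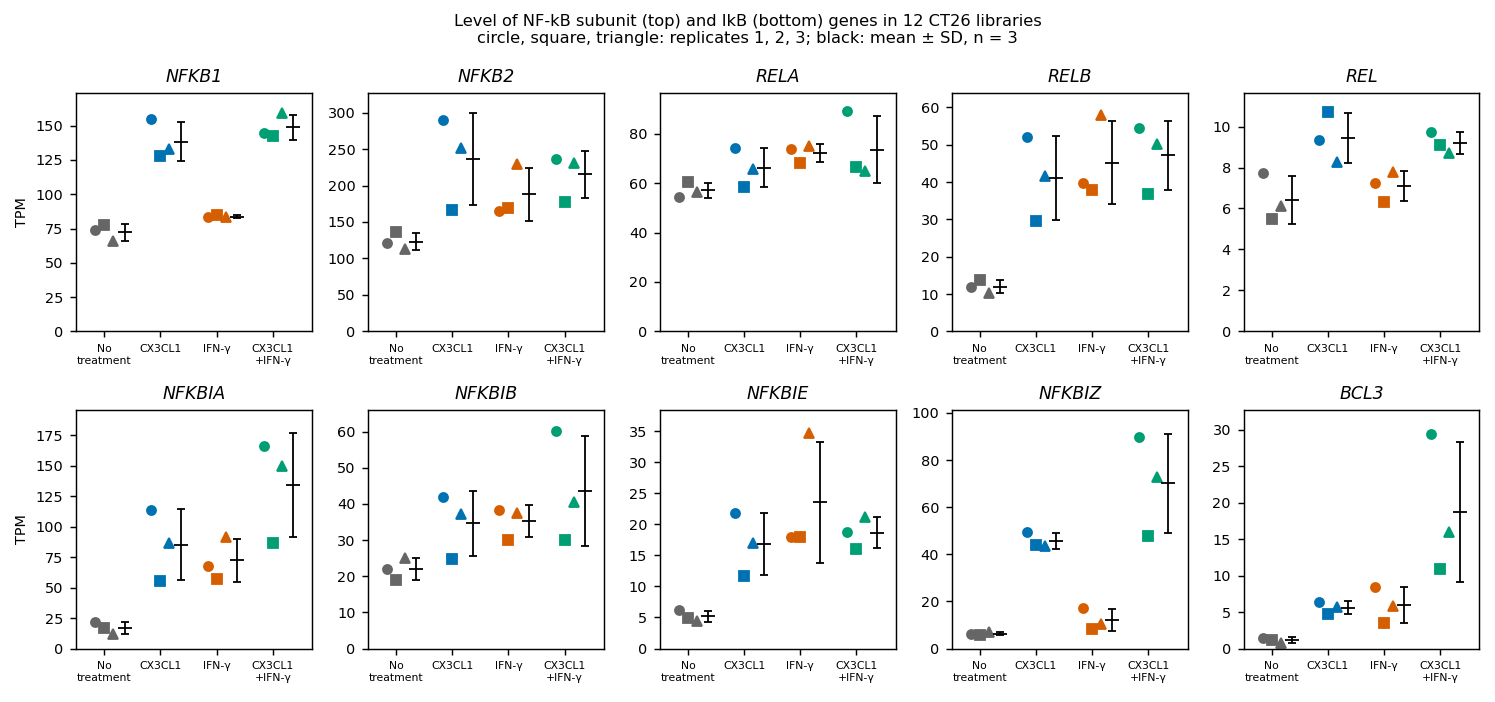
TPM (y axis, each panel from 0) of the 5 subunit genes (top) and the 5 IkB genes (bottom) in the 4 groups (x axis), with 1 point per library and the mean ± SD of 3 in black. In NFKB1 and NFKBIZ the libraries with CX3CL1 sit above those without it, in RELB and NFKBIE the 3 treated groups overlap, and BCL3 is highest with both agents.

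Of the cytoplasmic IkB genes, NFKBIA and NFKBIE rose with either agent. NFKBIA (chromosome 12, 55489410 to 55492647, minus strand) encodes the IkB that is degraded and resynthesised fastest after a stimulus. Its TPM were 21.4, 17.2 and 11.9 without treatment, 114, 55.6 and 86.6 with CX3CL1, 68.1, 57.2 and 91.6 with IFN-γ, and 166, 86.3 and 149.9 with both. Treated and untreated libraries were far apart, and the 3 treated groups overlapped. The means of 16.8 ± 4.78 (SD, n = 3), 85.3 ± 29.1, 72.3 ± 17.6 and 134 ± 42.3 TPM correspond to folds of 5.07, 4.29 and 7.97. NFKBIA rose by 2.25 on the log2 scale with CX3CL1 (standard error 0.30, adjusted p = 0.0013) and by 2.05 with IFN-γ (standard error 0.30, adjusted p = 7.1e-04). The further differences of the combination were 0.86 over IFN-γ (95% interval 0.20 to 1.51, adjusted p = 0.727) and 0.65 over CX3CL1 (0.00 to 1.3, adjusted p = 0.281). Its promoter window is the first of those printed above.

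NFKBIE (chromosome 17, 45555703 to 45563169, plus strand) encodes a further cytoplasmic inhibitor. It was listed at 6.23, 4.88 and 4.45 TPM without treatment, 21.7, 11.7 and 17 with CX3CL1, 17.9, 17.9 and 34.7 with IFN-γ, and 18.8, 16.1 and 21.2 with both. IFN-γ replicate 3 stood highest of the 12 libraries, and the libraries with both agents lay within the range spanned by CX3CL1 and IFN-γ alone. The folds were 3.24 with CX3CL1, 4.54 with IFN-γ and 3.60 with both. NFKBIE rose by 1.5 on the log2 scale with CX3CL1 (standard error 0.25, adjusted p = 0.0062) and by 1.93 with IFN-γ (standard error 0.25, adjusted p = 2.9e-04). When CX3CL1 was added to IFN-γ the value was -0.26 (95% interval -0.81 to 0.29), the 1 negative fold change among the 10 genes in that comparison.

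NFKBIB (chromosome 7, 28758251 to 28767512, minus strand), an inhibitor that is resynthesised more slowly, had TPM of 22.0, 19.0 and 25.1 without treatment, 41.9, 24.7 and 37.3 with CX3CL1, 38.2, 30.1 and 37.6 with IFN-γ, and 60.2, 30.2 and 40.6 with both. Replicate 2 was the lowest in each of the 4 groups, and CX3CL1 replicate 2 fell within the untreated range. The folds were 1.57, 1.60 and 1.98. In the fit without a block the test was not passed. The log2 fold change was 0.60 after CX3CL1 (adjusted p = 0.419, or 0.0405 with the replicate block) and 0.66 after IFN-γ (adjusted p = 0.117, or 0.0101 with the replicate block). NFKBIB overlaps the genes SIRT2 and CCER2 on the opposite strand, so its level is uncertain to that extent.

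With both agents, NFKBIZ and BCL3, the nuclear IkB genes among the 10, had the highest folds of the 10. NFKBID, a nuclear IkB gene outside the 10, rose less, from 1.73 TPM without treatment to 6.23 TPM with both agents. NFKBIZ (chromosome 16, 55811375 to 55838899, minus strand) encodes IkB-zeta, a co-activator at secondary inflammatory genes. Its TPM were 6.17, 5.68 and 7.18 without treatment, 49.5, 44.0 and 43.3 with CX3CL1, 17.3, 8.45 and 10.4 with IFN-γ, and 89.9, 47.8 and 72.6 with both. The libraries with CX3CL1 lay above all libraries without it. From 6.35 ± 0.767 TPM (SD, n = 3) in untreated cells, the level was 7.18-fold higher with CX3CL1 (45.6 ± 3.37 TPM), 1.90-fold higher with IFN-γ (12.1 ± 4.66 TPM) and 11-fold higher with both (70.1 ± 21.1 TPM). The log2 fold changes for CX3CL1 were 2.67 alone (standard error 0.24, adjusted p = 1.3e-04) and 2.46 on top of IFN-γ (standard error 0.24, adjusted p = 3.3e-04), and both calls held when any library was left out. The IFN-γ change of 0.78 missed the threshold (adjusted p = 0.071), and it passed with the replicate block (0.0131) and without IFN-γ replicate 2 (0.0345).

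BCL3 (chromosome 7, 19808462 to 19822770, minus strand) encodes a nuclear IkB that binds dimers of the NFKB1 and NFKB2 products. It had the lowest untreated level of the family, at 1.51, 1.23 and 0.797 TPM, and reached 6.43, 4.70 and 5.68 with CX3CL1, 8.47, 3.57 and 5.83 with IFN-γ, and 29.4, 10.8 and 15.9 with both. Each library with both agents lay above every library with 1 agent, and these above the untreated libraries. The folds over no treatment were 4.76, 5.06 and 15.9 on the TPM scale. BCL3 rose by 1.60 on the log2 scale with CX3CL1 (standard error 0.31, adjusted p = 0.0153), by 1.63 with IFN-γ (standard error 0.31, adjusted p = 0.0058), and by 1.48 when IFN-γ was added to CX3CL1 (standard error 0.31, adjusted p = 0.0167). Adding CX3CL1 to IFN-γ gave 1.46 (standard error 0.31, adjusted p = 0.101, or 0.0065 with the replicate block), which passed without CX3CL1+IFN-γ replicate 2 (adjusted p = 0.0253). The call for CX3CL1 alone did not hold without the filter (adjusted p = 0.0691) or without untreated replicate 2 or 3 (0.0619 and 0.0956) or CX3CL1 replicate 1 or 3 (0.0703 and 0.0637). The call for IFN-γ added to CX3CL1 likewise did not hold without the filter (0.0561) or without CX3CL1 replicate 2 or 3 (0.0518 and 0.0502) or CX3CL1+IFN-γ replicate 1 or 3 (0.0524 and 0.0521). At these low TPM the log2(TPM + 1) scale understates the change, and BCL3 overlaps a pair of antisense RNA genes.

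The design asks whether the effect of CX3CL1 differed when IFN-γ was present. This interaction was negative for all 10 genes, and none passed the threshold with limma, where 0% of the 11878 genes did; at an unadjusted p under 0.05 there were 273 genes, 4 of them in the family. The 4 were NFKBIE at -1.75 (95% interval -2.53 to -0.97, adjusted p = 0.181), RELB at -1.60 (-2.27 to -0.93, adjusted p = 0.145), NFKBIA at -1.40 (-2.32 to -0.48, adjusted p = 0.752) and NFKB2 at -0.70 (-1.3 to -0.10, adjusted p = 1.00). NFKB1, at -0.10 (-0.40 to 0.20), had the narrowest interval. The intervals of NFKBIZ, -0.21 (-0.95 to 0.53), and BCL3, -0.15 (-1.11 to 0.81), were wider and did not exclude differences of 0.5 in either direction. Over all the alternative fits named at the end, the BCL3 value ran from -0.59 to 0.16, so it depended on the processing. A fit blocked on the replicate number called 52 genes, among them RELB (adjusted p = 0.0456) and NFKBIE (adjusted p = 0.0461). Some same-number correlations with the untreated libraries were near 0, however (0.0047 for replicate 2 of no treatment and CX3CL1). A difference between the genes in this respect was not tested.

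**Figure D3:**
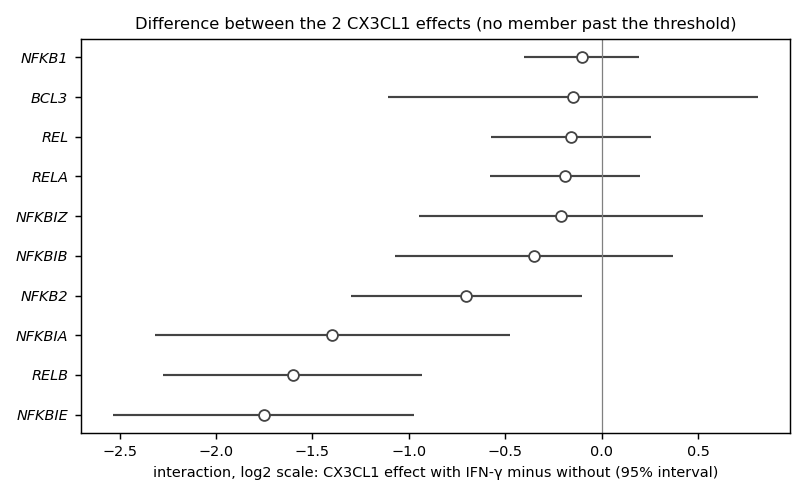
Interaction on the log2 scale (x axis), the CX3CL1 effect with IFN-γ minus that without, for each of the 10 genes with its 95% interval. The intervals of NFKBIE, RELB, NFKBIA and NFKB2 lie below 0 and those of the other genes reach across 0, and no gene passed the adjusted threshold in this fit, which has no replicate block.

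In order of level without treatment, NFKB2 led, followed by NFKB1, RELA, NFKBIB, NFKBIA, RELB, REL, NFKBIZ, NFKBIE and BCL3. Neighbours whose libraries overlapped were NFKBIB and NFKBIA, NFKBIA and RELB, REL and NFKBIZ, and NFKBIZ and NFKBIE. NFKB2 was first and NFKB1 second in each group, and with both agents the libraries of NFKB1 and of NFKBIA, next in order, overlapped. With CX3CL1 alone the overlapping neighbours were NFKBIA and RELA, NFKBIZ and RELB, and RELB and NFKBIB; there were 5 such pairs with IFN-γ and 6 with both agents. BCL3 was last in all groups but CX3CL1+IFN-γ, where REL was last and BCL3 and NFKBIE overlapped.

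Summed over the 5 subunits, the level was 271 ± 21.3 TPM without treatment (SD, n = 3), 491 ± 94.0 with CX3CL1, 396 ± 49.8 with IFN-γ and 494 ± 54.2 with both. The sum of the cytoplasmic inhibitors NFKBIA, NFKBIB and NFKBIE was 44.0 ± 4.81, 137 ± 42.9, 131 ± 29.9 and 197 ± 57.9 TPM. Their ratio within each library is free of the scaling of the library. Transcripts of these inhibitors per transcript of the 5 subunit genes came to 0.163 ± 0.0222 without treatment, 0.274 ± 0.0366 with CX3CL1, 0.328 ± 0.0376 with IFN-γ and 0.392 ± 0.0780 with both. NFKB1 and NFKB2, which encode precursors, were the most abundant of the 5. The ratio is thus one of transcripts and does not measure inhibitor against active subunit. The untreated libraries, at 0.140 to 0.185, lay below all 9 treated libraries, which began at 0.234. The ratio of RELB to RELA was 0.209 ± 0.0244 without treatment and 0.612 ± 0.10, 0.622 ± 0.131 and 0.645 ± 0.114 in the treated groups, which overlapped each other. The ratio of NFKB2 to NFKB1 was 1.70 ± 0.0595, 1.69 ± 0.335, 2.25 ± 0.448 and 1.44 ± 0.192. The libraries with IFN-γ alone, from 1.98, were above all others in that ratio. NFKBIZ and BCL3 together reached 7.52 ± 0.555 TPM, 51.2 ± 4.07, 18.0 ± 7.06 and 88.8 ± 30.3 in the same order.

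**Figure D4:**
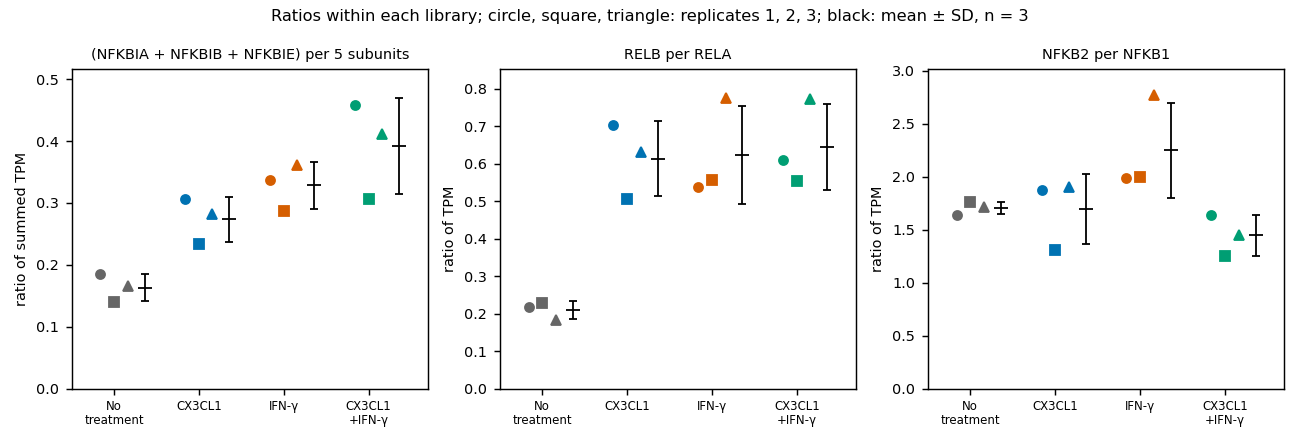
Ratios of TPM within each library (y axes, from 0) in the 4 groups (x axis), with 1 point per library and the mean ± SD of 3 in black. The untreated libraries are lowest for inhibitors per subunit and for RELB per RELA, and the IFN-γ libraries are highest for NFKB2 per NFKB1.

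Other genes of the pathway were read from hand-written lists. Of 23 genes upstream of NF-kB (IKK kinases, adaptors and ubiquitin ligases), 1 was higher and 1 lower after CX3CL1, 3 were higher after IFN-γ, 0 were called when CX3CL1 was added to IFN-γ, and 3 were higher when IFN-γ was added to CX3CL1. In these comparisons 1.78%, 5.91%, 0.345% and 3.76% of all genes were called higher, and 0.168% lower after CX3CL1. When CX3CL1 was added to IFN-γ, 2 of the 23 had an unadjusted p under 0.05 in limma, as did 517 of the 11878 genes tested. With the replicate block 1 of the 23 was called. The block raised the calls over all genes too, by the counts given at the end. The median log2 fold changes were 0.10, 0.14, 0.03 and 0.13, against -0.02, 0.03, -0.00 and 0.04 over all genes. MAP3K14, the kinase of the non-canonical pathway, fell from 6.83 to 3.75 TPM with CX3CL1 (log2 fold change -0.71, adjusted p = 0.0075), but the call did not hold when only the 6 libraries compared were fitted (adjusted p = 0.0626). With IFN-γ, the higher genes were RNF31, the catalytic subunit of the linear ubiquitin ligase (1.17, adjusted p = 7.2e-05), the adaptor MYD88 (1.02, adjusted p = 0.0017) and TRAF2 (0.72, adjusted p = 0.0075). IKBKE, an IKK-related kinase, was the gene higher with CX3CL1 (1.05, adjusted p = 0.0361, which did not hold without the filter, with only the 6 libraries compared, at 0.0509, or in 5 of the 6 fits with a library left out). RNF31 (0.79), MYD88 (0.74) and MAP3K14 (0.48) were those higher when IFN-γ was added to CX3CL1, with adjusted p-values of 0.0037, 0.0218 and 0.0484; the call of MAP3K14 was lost without any 1 of the 6 libraries, and that of MYD88 without CX3CL1 replicate 2 or CX3CL1+IFN-γ replicate 3 (adjusted p of 0.0572 and 0.106).

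Of 16 negative regulators and regulated feedback genes, 3 were higher after CX3CL1, 6 higher and 1 lower after IFN-γ, 1 higher when CX3CL1 was added to IFN-γ and 2 higher when IFN-γ was added to CX3CL1. The shares of all genes called are those given for the upstream genes, with 1.94% lower after IFN-γ. The list's medians were 0.29, 0.38, 0.05 and 0.22, against -0.02, 0.03, -0.00 and 0.04 over all genes. ZC3H12A, a ribonuclease that degrades inflammatory transcripts, went from 3.61 TPM without treatment to 31.6 with CX3CL1 (log2 fold change 2.79, adjusted p = 1.4e-04), and from 7.88 with IFN-γ to 44.8 with both (2.31, adjusted p = 0.0013). TRAF1 rose from 1.48 to 7.08 TPM with CX3CL1 (1.68, adjusted p = 0.0027) and to 12.4 with IFN-γ (2.37, adjusted p = 5.2e-05). NFKBID, a further nuclear IkB, was the third gene higher with CX3CL1 (1.09, adjusted p = 0.0154, lost without the filter at 0.0624 and in 4 of the 6 fits with a library left out). NLRC5, a regulator of MHC class I genes, rose with IFN-γ (2.37, adjusted p = 2.9e-04) and again when IFN-γ was added to CX3CL1 (1.75, adjusted p = 0.0057). TNFAIP3, a deubiquitinase, was also higher in both comparisons. Its values were 0.76 with IFN-γ (adjusted p = 0.0161) and 0.77 when IFN-γ was added to CX3CL1 (adjusted p = 0.0218). The latter call was lost in 4 of the 6 fits with a library left out, and no alternatives are given for the former. TNIP1 rose more than TNFAIP3 with IFN-γ (0.90, adjusted p = 0.0223). The TNIP1 call was lost without the filter (0.0574). It was also lost when untreated replicate 1, 2 or 3 or IFN-γ replicate 3 was left out. The 1 gene lower with IFN-γ, PDLIM2, a nuclear ubiquitin ligase for RELA that is named after its values were seen (-0.63, adjusted p = 0.0263), was no longer called when the filter was dropped, or when untreated replicate 2 or 3 or IFN-γ replicate 1 or 3 was left out.

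Of 22 listed targets of NF-kB (chemokines, cytokines, adhesion molecules and enzymes), 20 passed the filter. Of these, 12 were higher after CX3CL1, 13 after IFN-γ, 7 when CX3CL1 was added to IFN-γ and 10 when IFN-γ was added to CX3CL1, with 0 lower in each, where 1.78%, 5.91%, 0.345% and 3.76% of all genes were called higher. The medians were 1.26, 1.09, 1.11 and 1.32, against -0.02, 0.03, -0.00 and 0.04 over all genes. For CX3CL1 the first were the neutrophil chemokines CXCL1 (log2 fold change 6.17) and CXCL5 (4.30) and the monocyte chemokine CCL2 (3.65), and for IFN-γ they were CXCL10 (4.76), SAA3 (4.44) and CCL2 (3.36). CXCL5 (4.34) and CXCL1 (4.17) were also first when CX3CL1 was added to IFN-γ. The filter used the mean over all 12 libraries, so some targets passed it only through the treated groups. Examples are CXCL2 and CSF3, at 0 TPM without treatment, and CXCL5, at 0.0797 TPM. For such genes the filter favoured a rise over no treatment. The lists were also written with earlier results of these data known, so these counts describe the lists only.

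Over the 12 libraries, the gene, among 10753 that averaged 1 TPM or more, whose log2(TPM + 1) was most like that of each family gene was found by Pearson's r. For NFKBIZ it was CXCL5 (r = 0.992), for BCL3 ETS2 (0.983), for NFKB1 LRIG1 (0.979), for NFKBIA CCL2 (0.977), for RELB GLIPR2 (0.974) and for NFKBIE TRAF1 (0.971). For NFKBIB it was SQSTM1 (0.956), for REL ZFPM2 (0.943), for NFKB2 ZSWIM4 (0.919) and for RELA TFE3 (0.908). Within the family, the likeness was highest for RELB and NFKBIE (0.970), RELB and NFKBIA (0.963) and NFKB1 and NFKBIZ (0.958), and lowest for RELA and REL (0.325). These values are descriptions, since the points share the same 4 groups and libraries.

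The replicates of a treated group also differed from each other across the family. CX3CL1 replicate 2 was under its group's mean for all but 1 of the 10 genes, with a median deviation of -0.31 on the log2 scale, IFN-γ replicate 2 for all but 1 (-0.22) and CX3CL1+IFN-γ replicate 2 for all 10 (-0.30). Replicate 1 was above the mean for 9 of the 10 genes with CX3CL1 (median 0.24) and with both agents (median 0.26). Untreated replicate 2 was above its group's mean for 6 of the 10. CX3CL1 replicate 2 and CX3CL1+IFN-γ replicate 2 also held the most symbols at 0 TPM, 10106 and 9918. The other libraries held 9180 to 9663, with 9405 in IFN-γ replicate 2. Whether these deviations were particular to the family was not tested.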

How the data were processed

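RNA of 12 CT26 samples (4 groups of 3, grouped by their labels) was sequenced from strand-specific mRNA libraries. Per the labels and the methods, the authors aligned reads to mm10 and counted genes with STAR 2.7.3a and tested counts with DESeq2 1.22.1; the deposited values are TPM, scaled by the authors to a fixed total, and how TPM were made, the annotation and the strand setting are not given in the sources used here. TPM carry no read depth and allow no counting error, and a rise of abundant transcripts lowers the values of others. In the table, 2 names occurred more than once and 26 symbols read as dates. Counts were not analysed here.

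Genes averaging 0.2 TPM or more were fitted as log2(TPM + 1) with limma 3.58.1 under R 4.3.3 (lmFit, then eBayes with an intensity trend, over all 12 libraries without a block), and p-values were adjusted by Benjamini-Hochberg in each of the 5 comparisons. P-values measure the spread between the samples called biological replicates. Tested on simulated data for CX3CL1 against no treatment (11878 genes, 200 changed), the fit recovered 176 at a log2 change of 1 (6 false calls) and 198 at 2 (4 false calls). The changed genes were drawn from those with a mean log2(TPM + 1) above 2, and the noise was independent between libraries. Genes at lower levels and deviations shared by replicates were thus not covered. Tables were prepared with Python 3.11.15 and pandas 2.3.3. GENCODE vM21 (GRCm38) gave the gene positions.

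The family's genes and the other lists were chosen with earlier results of these data known. The text names all 10 genes, the gene most like each, and at most 3 called genes per list and comparison, taken by size of fold change. TNFAIP3 and PDLIM2 after IFN-γ are named beyond that. Deviations from the group means were positively correlated across genes between libraries of the same replicate number in each pair of groups. With no treatment, the correlations were 0.429, 0.460 and 0.220 for IFN-γ, 0.387, 0.0047 and 0.301 for CX3CL1, and 0.312, 0.447 and 0.0324 for both agents. They were 0.630, 0.635 and 0.649 for IFN-γ and both agents, and 0.351, 0.353 and 0.428 for CX3CL1 and both agents. For CX3CL1 and IFN-γ they were 0.585, 0.361 and 0.226. Blocked values are given as an alternative to the main fit, which has no block. The pairing rests on these correlations, since neither the labels nor the paper say what a number shares. Alternatives were a pseudocount of 0.1, no filter, median-ratio scaling, no intensity trend, the replicate block, only the libraries compared, and leaving out each library; those for the other lists were added after seeing the data.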

Additional observations from a re-analysis of the deposited data

How the results depend on the processing

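Of 650 alternative values of the 10 genes' fold changes and interactions, 601 kept their direction and their side of the threshold, 14 passed it newly, 17 no longer passed and 18 changed sign. All 18 were values not called in the first place, in fits that left out a library. Their ranges over such fits, when CX3CL1 was added to IFN-γ, were -0.13 to 0.094 for RELA, -0.045 to 0.25 for RELB, -0.0030 to 0.48 for NFKBIB and -0.41 to 0.048 for NFKBIE. When IFN-γ was added to CX3CL1 they were -0.34 to 0.058 for NFKB2, -0.0028 to 0.23 for RELA, -0.00031 to 0.40 for RELB, -0.11 to 0.057 for REL and -0.050 to 0.37 for NFKBIE, and for the interaction -0.42 to 0.062 for NFKBIZ and -0.52 to 0.16 for BCL3. The number of family genes called ran, with a library left out, from 5 to 7 for CX3CL1 against no treatment, 4 to 5 for IFN-γ, 2 to 3 for CX3CL1 added to IFN-γ, 0 to 1 for IFN-γ added to CX3CL1 and 0 to 0 for the interaction. It was 7 for IFN-γ with the replicate block, which also raised the calls over all genes, as given below. It was 7 as well with only the libraries compared, where NFKB2, RELA and NFKBIB were added. The share of all genes called in that fit is not given here, so its count describes these genes only. Without the filter, 0 were called for IFN-γ added to CX3CL1.

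Over all genes, the replicate block raised the calls from 232 to 455 for CX3CL1, 932 to 1929 for IFN-γ, 43 to 95 for CX3CL1 added to IFN-γ, 558 to 1369 for IFN-γ added to CX3CL1 and 0 to 52 for the interaction, 49 of them negative. In the family the block added NFKBIB for CX3CL1 (adjusted p = 0.0405), NFKB2, NFKBIB and NFKBIZ for IFN-γ, and BCL3 for CX3CL1 added to IFN-γ. For the interaction it added 2 genes, RELB (0.0456) and NFKBIE (0.0461). No call of the 10 genes was lost, and what libraries of a replicate number share is not stated in the labels or the paper. CX3CL1 added to IFN-γ gave 28 calls without the filter and 20 with only the libraries compared, and IFN-γ added to CX3CL1 gave 344 with only the libraries compared. With a library left out, calls ran from 152 (without untreated replicate 3) to 268, from 530 to 764 (530 without untreated replicate 3, 551 without IFN-γ replicate 3), from 16 to 54 (16 or 17 without CX3CL1+IFN-γ replicate 3 or 1 or IFN-γ replicate 2, 23 and 26 without IFN-γ replicate 3 and 1), from 270 (without CX3CL1+IFN-γ replicate 3) to 668, and from 0 to 11 (11 without untreated replicate 1, 1 without CX3CL1+IFN-γ replicate 2). Median-ratio scaling changed the split of higher and lower calls from 702 and 230 to 640 and 351 for IFN-γ, and from 447 and 111 to 357 and 187 for IFN-γ added to CX3CL1. Over the alternatives, the upstream list had 0 to 3, 3 to 5, 0 to 1 and 1 to 4 calls in the 4 comparisons, the negative regulators 2 to 6, 3 to 10, 1 to 2 and 1 to 5, and the targets 8 to 15, 10 to 15, 5 to 12 and 6 to 15. The cause of these shifts was not tested.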
